A study of Homo sapiens with 4 samples.

Results

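The genes described here are 10 ligands through which tumour cells meet natural killer (NK) cells and T cells. They were chosen by name and comprise MICA, MICB, ULBP1, ULBP2, ULBP3, CD274, CD276, PVR, CD47 and CD70. All 10 were found among the 40877 names of a single gene in the deposited gene table, and a gene's value is the sum of every feature that carries its name. The counts come from single-cell RNA sequencing with the 5′ chemistry of 10x Genomics, in which reads start at the 5′ end of polyadenylated RNA. H1299 derives from a non-small cell lung cancer and HCT116 from a colorectal cancer, both of human origin and used at passage 5 to 10. Each line was taken with the solvent DMSO, or with decitabine (DAC), an inhibitor of DNA methyltransferases, together with SB939, an inhibitor of histone deacetylases. DAC was present for 72 h and SB939 for 18 h, both at 500 nM, in medium renewed every 24 h. The treated libraries are called DAC+SB. No group received DAC or SB939 alone, so the part of each agent cannot be told apart.

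There was 1 library for each of the 4 combinations, so no test was made and no difference below has a replicate check. Levels are given as CPM, a gene's count scaled to a library total of 1000000 gene and transposable element (TE) counts. Intervals are 95% intervals and cover counting error only, with counts taken as independent. Whether repeat reads of a molecule were collapsed is not given, and the intervals are too narrow if they were not. A gene is counted as higher or lower where the ratio was at least 2-fold and the higher library held at least 100 counts. The libraries held 3578 to 4327 cells, and their totals lay between 62428673 and 64524196 counts in 3 libraries and at 38927267 in HCT116 DAC+SB. That library was also the shallowest per cell, with a median of 8449 counts against 15784.5 to 17369.5, and 1086 of its cells had more than 25% mitochondrial counts, against 88 to 364 in the others. TE counts made up 0.199% and 0.319% of the DMSO libraries of H1299 and HCT116, and 3.09% and 5.56% of their DAC+SB libraries. Of 15158 distinct cell barcodes, 131 occurred in 2 or more libraries.

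Marker genes of each line were looked at first. EPCAM, an epithelial surface protein, stood at 80.7 and 45.2 CPM in the HCT116 libraries (DMSO first) and at 0.0155 and 4.47 CPM in the H1299 libraries. VIM, the intermediate filament of mesenchymal cells, stood at 2282 and 1151 CPM in H1299 and at 47.0 and 265 CPM in HCT116. The levels of both genes thus separated the lines under each treatment, by a smaller margin with DAC+SB. NES, listed as a marker of H1299, went the other way. It stood at 0.124 and 17.2 CPM in H1299 and at 18.3 and 30.4 CPM in HCT116. CEACAM5 was at 0 in every library but HCT116 DAC+SB and CDH17 at 0 in both DMSO libraries, although both had been listed as markers of HCT116. The 9 leukocyte markers together reached 0.341 and 0.176 CPM in the DMSO libraries of H1299 and HCT116 and 2.39 and 7.12 CPM with DAC+SB, where 7 and 9 of the 9 had counts. CD3D, a chain of the T cell receptor complex, had 0 and 44 counts in untreated and treated H1299 and 2 and 183 (4.70 CPM) in untreated and treated HCT116. PTPRC, the pan-leukocyte antigen CD45, was at 0 without treatment and had 8 counts in treated H1299 and 5 in treated HCT116. Fibroblast and endothelial markers (5 genes) summed to 0.294 and 8.38 CPM with DMSO and 22.4 and 20.6 CPM with DAC+SB. These marker levels moved with treatment, and their part in the ligand results was not tested.

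NKG2D is an activating receptor of NK cells and of subsets of T cells. Its ligands MICA, MICB and the ULBP proteins resemble MHC class I molecules and are scarce on most healthy cells, but are displayed by stressed, infected or transformed cells. The checkpoint ligands act on other receptors: CD274 (PD-L1) engages PD-1 on T cells, CD276 (B7-H3) is a B7 family member, CD47 is the signal that restrains phagocytosis through SIRPA, PVR (CD155) binds the activating receptor DNAM-1 and the inhibitory receptor TIGIT, and CD70 is the ligand of CD27.

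The NKG2D ligand genes lie in 2 clusters on chromosome 6 (GRCh38, GENCODE v29). MICA spans chr6:31399784-31415315 and MICB chr6:31494881-31511124, both on the plus strand within the MHC. ULBP2 (chr6:149942000-149949235, plus strand), ULBP1 (chr6:149964007-149973710, plus strand) and ULBP3 (chr6:150063150-150069095, minus strand) lie together on the long arm. The other genes are CD274 at chr9:5450503-5470566 (plus), CD276 at chr15:73683966-73714518 (plus), PVR at chr19:44643798-44663583 (plus), CD47 at chr3:108043094-108091862 (minus) and CD70 at chr19:6583183-6604103 (minus). The annotation overlaps MICA with HCP5 on the same strand, and PVR with CEACAM19 on the same strand and with AC243964.2 and MIR4531 on the other. The sources used here do not give whether counting used strand.

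Upstream sequences are shown for the pair ULBP1 and ULBP2, both higher with DAC+SB in each line, and for the paralogs MICA and MICB, which differed in HCT116. They come from RefSeq promoters on GRCh38.p14, of which 9 of the 10 genes had an entry. Each stretch is on the plus strand, lies before the RefSeq start and holds no base of a GENCODE exon, and its CG dinucleotides, the sites that DNA methyltransferases act on, are in capitals. The MICA and MICB stretches lie inside the longer gene spans that GENCODE gives, between exons. The coordinates are chr6:149963693-149963942 for ULBP1, chr6:149941764-149941999 for ULBP2, chr6:31403345-31403578 for MICA and chr6:31497895-31498085 for MICB.
ULBP1: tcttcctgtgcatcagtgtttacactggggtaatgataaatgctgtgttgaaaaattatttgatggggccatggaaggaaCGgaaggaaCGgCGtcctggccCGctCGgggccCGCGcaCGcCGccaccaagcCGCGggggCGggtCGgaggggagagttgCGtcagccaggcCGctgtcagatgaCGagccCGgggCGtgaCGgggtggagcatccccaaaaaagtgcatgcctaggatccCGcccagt
ULBP2: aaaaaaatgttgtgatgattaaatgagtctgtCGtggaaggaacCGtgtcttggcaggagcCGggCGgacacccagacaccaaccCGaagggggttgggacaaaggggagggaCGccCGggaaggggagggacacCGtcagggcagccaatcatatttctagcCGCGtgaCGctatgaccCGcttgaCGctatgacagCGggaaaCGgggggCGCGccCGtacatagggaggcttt
MICA: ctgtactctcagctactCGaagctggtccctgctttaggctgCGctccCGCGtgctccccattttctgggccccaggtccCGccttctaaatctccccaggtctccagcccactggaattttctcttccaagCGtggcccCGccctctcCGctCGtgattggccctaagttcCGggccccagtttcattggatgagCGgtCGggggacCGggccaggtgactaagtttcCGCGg
MICB: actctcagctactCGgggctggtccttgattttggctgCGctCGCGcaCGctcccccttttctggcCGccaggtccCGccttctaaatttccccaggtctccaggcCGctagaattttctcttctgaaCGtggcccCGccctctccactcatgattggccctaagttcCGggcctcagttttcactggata
These stretches of 250, 236, 234 and 191 bases hold 20, 18, 15 and 11 CG dinucleotides. Over the full 250 bases before the RefSeq start, the 9 genes held between 16 (CD274) and 39 (CD47), against a median of 11 over 35116 promoters. The windows of CD276 and CD47 also lie inside the GENCODE gene span, and 170 bases of the CD276 window and 112 of the PVR window are in annotated exons. CD47 had more CG than 97.3% of promoters, and CD276, with 29, more than 85.9%. A relation of CG content to the treatment ratios was not tested. The MICA and MICB promoters were identical at 209 of 246 aligned bases (85.0%). DNA methylation was not measured in these files.

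Short motifs were searched in the 250 bases on both strands. The GC box GGGCGG was present in 8 of the 9 promoters, in all but PVR, against 42.6% of all promoters. The CCAAT box was present in MICA, MICB, ULBP2 and CD276, against 32.0% of all promoters. MICA and MICB each held 1 match to the heat shock element GAANNTTC, found in 5.78% of all promoters. CD274, a gene known to respond to interferon, held 1 match to the gamma-activated site TTCNNNGAA (6.57% of all promoters) and was the member with matches to the interferon-stimulated response element (3.02%). The AP-1 site TGANTCA, the cyclic AMP response element TGACGTCA and the E-box CACGTG had no match in the 9 windows. A match describes letters and is not a measured binding site.

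In H1299, 2 of the 10 genes were higher with DAC+SB and 0 were lower. The 2 were ULBP1 and ULBP2. Over all 14610 genes above the count minimum in that line, 18.3% were higher and 7.34% lower. In HCT116, 5 genes were higher, namely MICA, ULBP1, ULBP2, CD47 and CD70, and 2 were lower, CD276 and PVR, of 9 above the minimum. The shares over all 13539 genes in that line were 16.2% higher and 20.0% lower. At 4-fold, ULBP1 was the 1 member higher in H1299 and 0 were lower (11.0% and 0.349% of all genes), and in HCT116 CD276 was the 1 member lower and 0 were higher (3.69% and 9.63%). The median log2 ratio of the members was -0.13 in H1299 against -0.07 over all genes, and 1.07 in HCT116 against -0.23. In the plot of log2 ratios, ULBP1, ULBP2, ULBP3 and CD274 lie right of 0 in both lines, MICB, CD276 and PVR left of 0 in both, and CD47 and CD70 on either side. MICA lies right of 0 in HCT116 and just left of it in H1299, where centring on the median of all genes moved it to 0.01.

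**Figure D1:**
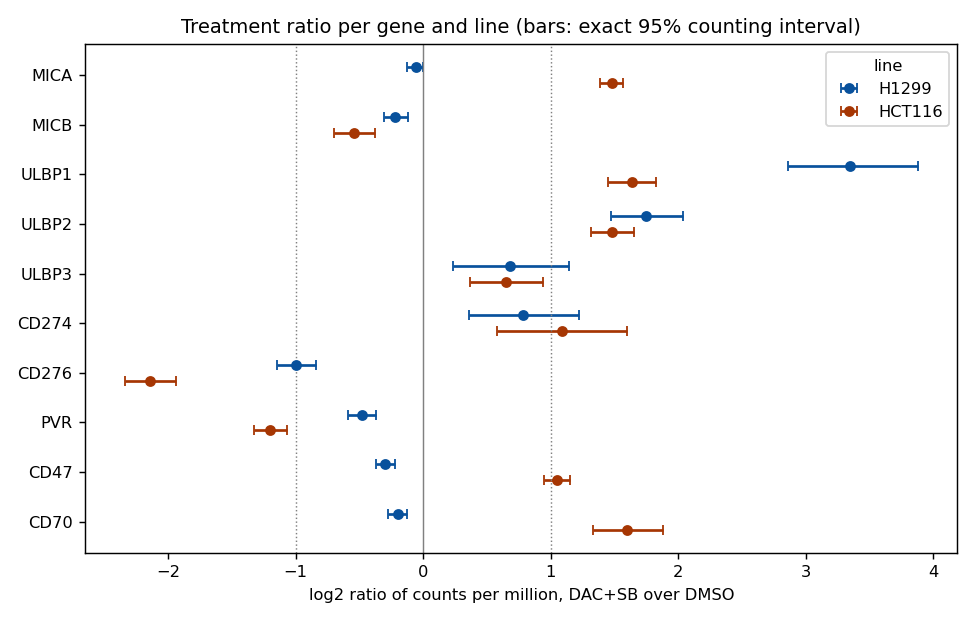
Log2 ratio of CPM, DAC+SB over DMSO (x axis), for the 10 ligand genes (y axis) in H1299 (blue) and HCT116 (brown); bars are exact 95% counting intervals and dotted lines mark 2-fold. ULBP1 in H1299 lies farthest right at 3.35 and CD276 in HCT116 farthest left at -2.14.

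ULBP1, a GPI-anchored NKG2D ligand, was the member with the largest ratio in H1299. H1299 had 0.573 CPM (37 counts) with DMSO and 5.86 (366) with DAC+SB, and HCT116 had 5.51 (345) and 17.1 (667). The H1299 library without treatment was the low one, treated H1299 and untreated HCT116 had overlapping counting intervals, and treated HCT116 was the highest. The DAC+SB over DMSO ratio was 10.2 (7.28 to 14.8) in H1299 and 3.11 (2.73 to 3.55) in HCT116. The log2 ratios differed between the lines by 1.72 (1.19 to 2.24). One of the 2 ULBP1 features was not listed in H1299 DMSO, and the ratio over the feature listed in both H1299 libraries was 7.60.

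ULBP2, also GPI-anchored, stood at 2.12 CPM (137 counts) in untreated and 7.16 (447) in treated H1299, and at 7.92 (496) in untreated and 22.1 (862) in treated HCT116. The order of the libraries was that of ULBP1, except that untreated HCT116 and treated H1299, which again overlapped, changed places. The ratio was 3.37 (2.78 to 4.11) in H1299 and 2.80 (2.50 to 3.13) in HCT116. The log2 difference between the lines, 0.27 (-0.05 to 0.59), had an interval that included 0. ULBP2 has close relatives in RAET1G and RAET1L, and the sources used here do not give how reads that match several of them were counted.

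ULBP3, the third of this group, had 1.07 CPM (69 counts) and 1.71 (107) in untreated and treated H1299, and 3.38 (212) and 5.32 (207) in untreated and treated HCT116. The 4 levels were apart from each other by their counting intervals, and HCT116 was above H1299 under each treatment. The ratio with DAC+SB was 1.60 (1.17 to 2.20) in H1299 and 1.57 (1.29 to 1.91) in HCT116, under 2-fold in both, with a difference of the log2 ratios of 0.03 (-0.49 to 0.55). Summed over ULBP1, ULBP2 and ULBP3, the level was 3.77, 14.7, 16.8 and 44.6 CPM in the same order of libraries. The summed ratio was 3.91 (3.39 to 4.53) in H1299 and 2.65 (2.46 to 2.87) in HCT116.

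MICA, a transmembrane NKG2D ligand, had 69.4 CPM (4481 counts) and 66.4 (4147) in H1299 without and with DAC+SB, and 25 (1569) and 69.7 (2715) in HCT116. Untreated HCT116 was the low library, and treated HCT116 reached the level of untreated H1299 within counting error. The ratio with DAC+SB was 2.78 (2.62 to 2.96) in HCT116 and 0.957 (0.917 to 0.998) in H1299. The log2 ratios were 1.48 and -0.06, a difference between the lines of -1.54 (-1.65 to -1.43).

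MICB, the paralog of MICA, did not share that pattern in its counts summed over features. Its level was 29.6 CPM (1909 counts) in untreated H1299 and 25.5 (1591) in treated H1299, 17.4 (1087) in untreated HCT116 and 12 (466) in treated HCT116. The 4 levels were apart by their counting intervals, with DAC+SB the lower library in each line. The ratio was 0.861 (0.805 to 0.921) in H1299 and 0.690 (0.618 to 0.770) in HCT116, neither reaching 2-fold. In HCT116 the 2 paralogs thus lay on opposite sides of 1, at log2 ratios of 1.48 for MICA and -0.54 for MICB. Their sequences are alike, so reads could be split between them by the authors' counting. Summed, the pair had 99.0 CPM without and 91.9 with DAC+SB in H1299, a ratio of 0.928 (0.895 to 0.962). The sum in HCT116 was 42.4 and 81.7 CPM, for which the ratio was 1.93 (1.83 to 2.03).

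**Figure D2:**
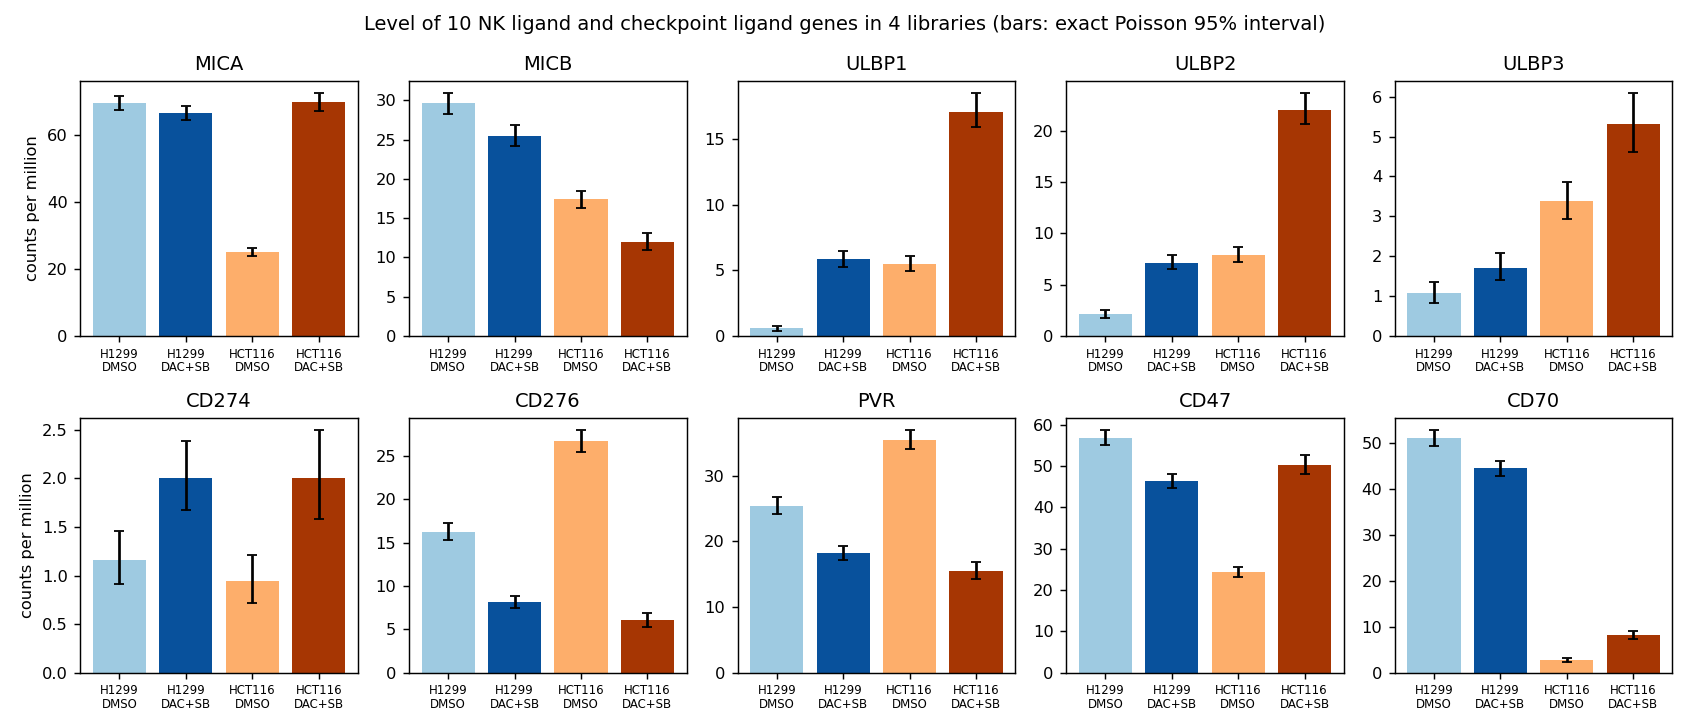
Level in CPM (y axis, starting at 0 and scaled per gene) of each of the 10 ligand genes in the 4 libraries (x axis); bars show exact Poisson 95% intervals, and each column is 1 library. The ULBP genes step up from H1299 to HCT116 and from DMSO to DAC+SB, whereas CD276 and PVR are highest in HCT116 DMSO, at 26.7 and 35.5.

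CD276, a B7 family ligand with inhibitory effects on T cells and NK cells, was lower with DAC+SB in both lines. Counts were 1048 (16.2 CPM) in untreated and 508 (8.14) in treated H1299, 1671 (26.7) in untreated and 236 (6.06) in treated HCT116. Both DMSO libraries were above both DAC+SB libraries. The ratio was 0.227 (0.197 to 0.261) in HCT116, and 97.2% of the genes of that comparison had a higher one. In H1299 it was 0.501 (0.450 to 0.558), just short of 2-fold, and the log2 ratios differed between the lines by 1.14 (0.89 to 1.39).

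PVR had the same order of libraries as CD276. H1299 held 25.4 CPM (1640 counts) without and 18.2 (1137) with DAC+SB, and HCT116 held 35.5 (2226) and 15.5 (602). The ratio was 0.717 (0.664 to 0.773) in H1299 and 0.435 (0.397 to 0.476) in HCT116. HCT116 was the line with the higher DMSO level and the lower DAC+SB level for both genes, but the PVR difference between the lines under DAC+SB, a log2 ratio of 0.24 for H1299 over HCT116, was -0.06 after centring on the median of all genes. The HCT116 log2 ratio of PVR was -1.20, and it was -0.97, short of 2-fold, after centring on the median of all genes.

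CD274 rested on few counts. The untreated lines had 1.16 CPM (75 counts, H1299) and 0.942 (59, HCT116), and both treated lines had 2.0 CPM (125 and 78 counts). The 2 DMSO libraries overlapped in their intervals, as did the 2 DAC+SB libraries, and the levels with DAC+SB were above those with DMSO. The ratio was 1.72 (1.28 to 2.33) in H1299 and 2.13 (1.5 to 3.04) in HCT116, where no library reached 100 counts. The HCT116 log2 ratio of 1.09 was 0.96 without the 5% of cells with most counts. It was 0.95 without cells above 25% mitochondrial counts, so both were short of 2-fold. By feature, the log2 ratios in H1299 and HCT116 were 0.99 (0.47 to 1.52) and 0.69 (0.03 to 1.34) for the unnumbered one. For feature 1 they were 0.30 (-0.50 to 1.11) and 1.77 (0.90 to 2.69). At this depth a difference between the lines in the log2 ratio was not detectable, at -0.30 (-0.94 to 0.33).

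CD47 had 56.9 CPM (3673 counts) in untreated and 46.4 (2896) in treated H1299, against 24.3 (1525) in untreated and 50.4 (1963) in treated HCT116. Untreated HCT116 was the low library, as for MICA, and the other 3 lay between 46.4 and 56.9 CPM, each apart from the next by its counting interval. The ratio was 0.815 (0.776 to 0.856) in H1299 and 2.07 (1.94 to 2.22) in HCT116. The HCT116 value was close to the 2-fold limit, and the log2 ratio of 1.05 became 0.95 when levels were averaged over cells instead of summed. By feature the HCT116 log2 ratio was 1.21 (1.09 to 1.33) for feature 1 and 0.74 (0.57 to 0.91) for the unnumbered one, which alone is under 2-fold.

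CD70, a ligand of the tumour necrosis factor family, separated the lines more than any other member. Untreated and treated H1299 had 51.0 CPM (3292 counts) and 44.4 (2769), and untreated and treated HCT116 had 2.68 (168) and 8.14 (317). Both H1299 libraries were above both HCT116 libraries, 19.0-fold (16.3 to 22.3) under DMSO and 5.45-fold (4.85 to 6.14) under DAC+SB. The treatment ratio was 0.869 (0.826 to 0.915) in H1299 and 3.04 (2.51 to 3.68) in HCT116.

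The lines were also compared under each treatment. Under DMSO, 3 members were higher in H1299 (MICA, CD47 and CD70) and 3 were lower (ULBP1, ULBP2 and ULBP3) of 9 above the minimum, where 20.5% of all 13796 genes were higher and 15.2% lower. Under DAC+SB, MICB and CD70 were higher in H1299 and the 3 ULBP genes lower, of 10, where 25.4% of 14875 genes were higher and 12.1% lower. The MICB log2 ratio of 1.09 was 0.80 after centring on the median of all genes and 0.92 with TE, mitochondrial and ribosomal protein genes left out of the denominator, both short of 2-fold. At 4-fold, CD70 was higher and ULBP1 lower in H1299 under DMSO (9.92% and 8.11% of all genes). Under DAC+SB it was CD70 alone that was higher, with 0 lower (8.97% and 4.65%). MICA and CD47, apart by 1.47 and 1.23 on the log2 scale under DMSO, were apart by -0.07 and -0.12 under DAC+SB. After centring on the median of all genes, the values under DAC+SB were -0.36 and -0.41. The features of each gene lay on opposite sides of 0 there. The unnumbered feature and feature 1 were at 1.16 and -0.51 for MICA, and at 0.43 and -0.44 for CD47. For ULBP3 the log2 difference between the lines was -1.66 under DMSO and -1.63 under DAC+SB. The 5 NKG2D ligands summed to 103 CPM in untreated and 107 in treated H1299, and to 59.2 in untreated and 126 in treated HCT116. The treatment ratio of that sum was 1.04 (1.00 to 1.07) in H1299 and 2.13 (2.04 to 2.23) in HCT116. H1299 was thus the higher line under DMSO, and HCT116 under DAC+SB.

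In the deposited table a gene's counts are split over features, some with a number after the gene name. The sources used here do not give the meaning of that number, and numbered features were listed from 10 counts in a library. An unlisted feature is therefore not known to be at 0. CD70 showed the largest redistribution. Its feature 1 stood at 26.2 CPM in untreated and 5.45 in treated H1299, and at 2.11 and 1.13 CPM in HCT116. Its share of the gene's counts in H1299 was 51.3% without and 12.3% with DAC+SB, and in HCT116 it was 78.6% and 13.9%. Its feature 2 was listed in neither DMSO library, and held 683 counts (24.7% of the gene) in H1299 DAC+SB and 96 counts (30.3%) in HCT116 DAC+SB. The near-even total of CD70 in H1299 was thus made of a feature with a log2 ratio of -2.26 (-2.44 to -2.10), one listed with DAC+SB only, and the unnumbered feature at 0.17 (0.07 to 0.27). In HCT116 the unnumbered feature was at 2.98 (2.46 to 3.54) and feature 1 at -0.90 (-1.43 to -0.40), each on the same side of 0 as in H1299. Over the features listed in both libraries, the log2 ratio of CD70 was -0.61 in H1299 and 1.08 in HCT116, against -0.20 and 1.60 over all.

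**Figure D3:**
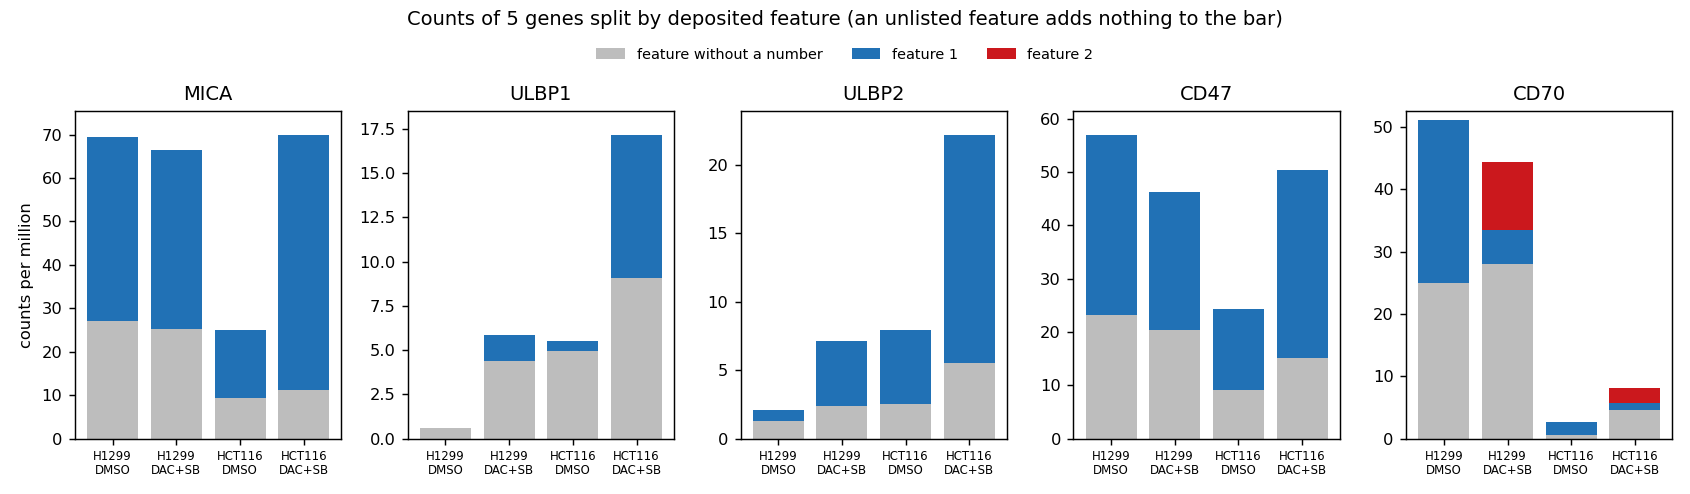
CPM (y axis, from 0, scaled per gene) of MICA, ULBP1, ULBP2, CD47 and CD70 in the 4 libraries (x axis), stacked by deposited feature; grey is the feature without a number, blue feature 1 and red feature 2. CD70 feature 2 appears in the DAC+SB libraries, at 10.9 and 2.47 CPM, and MICA in HCT116 differs between treatments mainly in feature 1.

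The difference in MICA lay in feature 1, which had 15.8 CPM in untreated and 58.5 in treated HCT116, a log2 ratio of 1.89 (1.78 to 2.0). The unnumbered MICA feature went from 9.26 to 11.3 CPM there, a log2 ratio of 0.28 (0.10 to 0.47). In H1299 the same 2 features had log2 ratios of -0.04 and -0.10, and neither stood out from the other. ULBP1 was alike in HCT116, with a log2 ratio of 3.81 (3.31 to 4.35) for feature 1 and 0.88 (0.66 to 1.11) for the unnumbered one, which alone is under 2-fold. For ULBP2 feature 1 the log2 ratio was 2.55 (2.12 to 3.0) in H1299 and 1.63 (1.43 to 1.82) in HCT116. The unnumbered ULBP2 feature had 0.85 (0.46 to 1.26) in H1299, which alone is under 2-fold, and 1.13 (0.83 to 1.43) in HCT116. CD276 had a single unnumbered feature, so its ratios do not depend on which features were listed. MICB and PVR had a numbered feature in the HCT116 libraries alone. For MICB the log2 ratio in HCT116 was 0.56 (0.18 to 0.93) for feature 1 and -0.77 (-0.95 to -0.59) for the unnumbered feature.

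For values per cell, 1 random draw took 3300 counts from each cell, which left out 402 cells of treated HCT116 and none elsewhere. The share of cells with a MICA count was then 19.2% and 17.9% in untreated and treated H1299, and 7.68% and 19.6% in untreated and treated HCT116. At full depth the same shares were 61.6%, 54.8%, 29.9% and 39.8%. For ULBP1 the thinned shares were 0.196%, 1.80%, 1.61% and 5.10% in that order (0.894%, 7.27%, 7.87% and 11.5% at full depth). Untreated HCT116 was the low library for MICA at either depth, and untreated H1299 the low one for ULBP1, as in the summed levels. No order is read among the other 3 MICA shares, which lay close together and vary with the draw. For CD276 the thinned shares were 5.95%, 2.93%, 7.19% and 1.76% (22.7%, 11.7%, 31.8% and 4.99% at full depth). For CD70 they were 13.7%, 12.9%, 1.01% and 2.39% (44.1%, 40.1%, 3.85% and 6.63%). Each library was made from 1 line, and no cell type that should lack the genes was used to measure counts from free RNA.

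At least 1 of the 5 NKG2D ligands was counted in 27.3% (25.9 to 28.8) of thinned cells of untreated and 28.2% (26.7 to 29.6) of treated H1299, and in 17.1% (15.9 to 18.3) of untreated and 31.9% (30.4 to 33.4) of treated HCT116. At least 1 of the 3 ULBP genes was counted in 1.37%, 4.40%, 4.95% and 12.2% in the same order. Cells with 2 or more ULBP genes numbered 0, 1, 2 and 22, and the 0 of 3578 cells has a 95% upper bound of 0.103%. In HCT116 DAC+SB, 16 cells had both ULBP1 and ULBP2, where the product of the single shares gives 12.2. The number of cells with both was near that product. A single HCT116 DAC+SB cell held up to 15 ULBP1 counts at full depth, against at most 4 in HCT116 DMSO.

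Within each library, the 25% of cells with the highest TE share (TE-high) were set beside the 25% with the lowest. Levels were over gene plus TE counts, so a higher TE share by itself lowers every gene's level in TE-high cells. The limits of the 2 groups lay farthest apart in treated HCT116, at 7.32% and 3.25% TE counts. ULBP1 was higher in TE-high cells in all 4 libraries. In treated H1299 its levels were 8.70 and 5.29 CPM, a ratio of 1.64 (1.24 to 2.18), and in treated HCT116 they were 19.8 and 15.3 CPM, a ratio of 1.30 (1.04 to 1.61). In the DMSO libraries it was 1.91 (1.38 to 2.67) in HCT116, and in H1299 it rested on 9 and 2 counts. PVR was above 1 in all 4 libraries as well, at 1.98 (1.71 to 2.30) and 1.27 (1.08 to 1.51) in untreated and treated H1299, and at 1.20 (1.06 to 1.35) and 1.12 (0.889 to 1.41) in untreated and treated HCT116. CD274 in treated HCT116, at 2.34 (1.14 to 5.0) on 24 and 13 counts, and CD70 in untreated HCT116, at 1.60 (1.01 to 2.56), were also higher in TE-high cells. CD47 was lower in TE-high cells in all 4 libraries, at 0.874 (0.797 to 0.958) and 0.732 (0.658 to 0.814) in untreated and treated H1299, and at 0.860 (0.743 to 0.996) and 0.875 (0.769 to 0.993) in untreated and treated HCT116. Both HCT116 intervals ended close to 1, and ratios over gene counts alone were not computed. MICA was lower in them in 3 libraries, at 0.761 (0.698 to 0.829) in untreated and 0.657 (0.602 to 0.718) in treated H1299 and 0.825 (0.739 to 0.921) in treated HCT116. CD70 was lower in both H1299 libraries, at 0.668 (0.603 to 0.741) and 0.565 (0.506 to 0.632). MICB was lower in them in treated H1299, at 0.568 (0.490 to 0.658). In HCT116 DAC+SB, ULBP2 was lower in TE-high cells, at 16.3 against 28.6 CPM, although both ULBP2 and TE counts were higher in that library than with DMSO. TE-high cells there were shallower, with a median of 7414 against 9986.5 counts, and had a mitochondrial share of 20.9% against 15.8%, and the part of these in the ratios was not tested.

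The surrounding pathway was described with 73 further genes in 9 lists. In H1299, 55 were above the minimum, of which 10 were higher and 11 lower with DAC+SB, where 18.3% of all genes were higher and 7.34% lower. In HCT116, 51 were above it, of which 8 were higher and 16 lower, where 16.2% of all genes were higher and 20.0% lower. The counts of each list below are to be read against these shares, and the lists are small. In H1299, RAET1G, CLEC2B, HLA-G, VSIR, TNFSF9, CD24 and MMP9 passed the minimum through the treated library alone. RAET1G, ICAM1 and CDH1 did so in HCT116. RAET1E, MMP14, IRF2, NFKB1 and FAS passed it in HCT116 through the DMSO library alone. The plot of the named genes shows both lines together. Of the 28 genes that the naming rule chose, 11 had a feature listed in 1 of a line's libraries only, and 7 of these 15 pairs of gene and line changed or lost their call when such features were left out. Where this ended a call named below, both values are given, except for CD24 in H1299, which had no feature listed in both libraries.

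**Figure D4:**
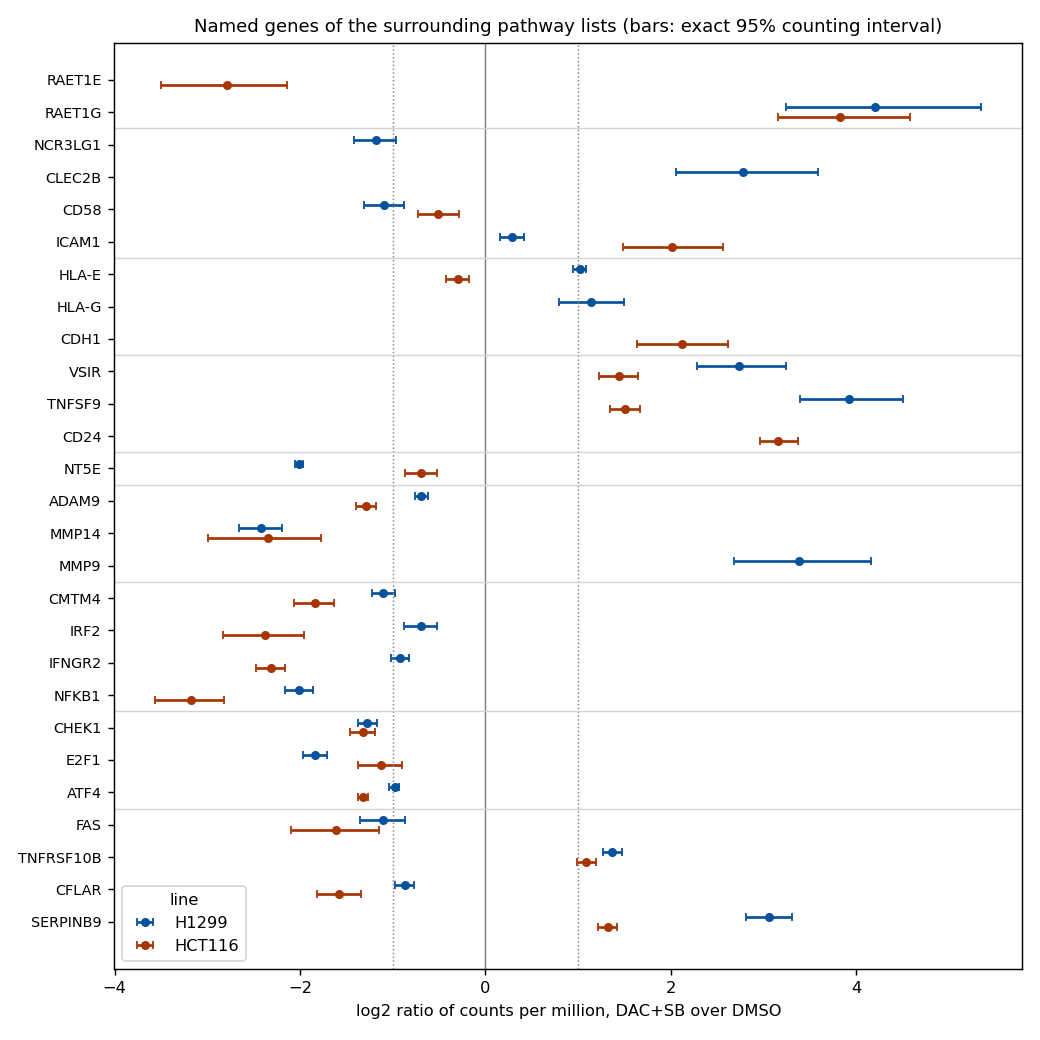
Log2 ratio of CPM, DAC+SB over DMSO (x axis), of genes named from the pathway lists (y axis, lists parted by grey lines) in H1299 (blue) and HCT116 (brown); bars are exact 95% counting intervals, dotted lines mark 2-fold, and genes under the count minimum or without counts under DMSO are not drawn for that line. NFKB1, CHEK1 and E2F1 lie left of -1 in both lines, and VSIR, TNFSF9 and SERPINB9 right of 1.

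Of the other 3 NKG2D ligands, RAET1G had 9 counts in untreated and 160 in treated H1299, and 20 and 177 in HCT116, log2 ratios of 4.20 and 3.83. Over features listed in both libraries these were 2.58 and 1.92, on fewer than 100 counts. RAET1E, a further ULBP gene, was lower in HCT116 at -2.79 (-1.61 over features listed in both). Among other partners of activating NK receptors, of which 1 was higher and 2 lower of 6 above the minimum in H1299, NCR3LG1 (B7-H6, the ligand of NKp30) had a log2 ratio of -1.18 and CD58 (the ligand of CD2) -1.09. In HCT116, 1 of 4 was higher, the adhesion molecule ICAM1 at 2.01, with 43 counts in the DMSO and 108 in the DAC+SB library. CLEC2B, the ligand of NKp80, was higher in H1299 at 2.78 (2.35 over the feature listed in both libraries, on fewer than 100 counts) and had 0 counts in both HCT116 libraries.

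Of ligands of inhibitory NK receptors, 2 of 4 were higher in H1299 and 1 of 3 in HCT116. HLA-E, the ligand of NKG2A, had 37.0 and 75.1 CPM in H1299 DMSO and DAC+SB, a log2 ratio of 1.02, and 28.8 and 23.4 CPM in HCT116, at -0.30. HLA-G, a ligand of the inhibitory receptor LILRB1, had 97 counts in untreated and 207 in treated H1299, a log2 ratio of 1.14, and stayed under the minimum in HCT116 with 68 and 99 counts. CDH1, the ligand of KLRG1, was higher in HCT116 at 2.12, with 50 counts in the DMSO and 135 in the DAC+SB library. Of 16 other checkpoint and costimulatory ligands, 4 were above the minimum in H1299 and 3 in HCT116, and 3 were higher in each line. They were VSIR (VISTA) at 2.74 and 1.44, TNFSF9 (the 4-1BB ligand) at 3.92 and 1.51, and CD24, the ligand of Siglec-10, at 3.16 in HCT116. Counts of VSIR and TNFSF9 in H1299 were 44 and 30 under DMSO, so both passed the minimum through the treated library alone. For CD24 in H1299, no count was listed with DMSO and 938 with DAC+SB, at least 323-fold higher against a floor of 3 counts if unlisted features were at 0. No CD24 feature was listed in both H1299 libraries, so this call does not hold over shared features. NT5E, the CD73 enzyme that makes adenosine, had 366 and 91.0 CPM in H1299, a log2 ratio of -2.01, and -0.69 in HCT116.

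Of 6 genes of ligand shedding, MMP14, a membrane protease, was lower in both lines at -2.42 and -2.35, and ADAM9 was lower in HCT116 at -1.29 and had -0.69 in H1299. MMP9 was higher in H1299 at 3.38, with 18 counts in the DMSO and 181 in the DAC+SB library. Of 16 regulators of CD274 and CD47, 0 were higher in either line, and 3 were lower in H1299 and 5 in HCT116, beside 7.34% and 20.0% of all genes. NFKB1 had log2 ratios of -2.01 and -3.18, CMTM4 -1.10 and -1.84, IRF2 -0.70 and -2.38, and IFNGR2 -0.92 and -2.31 in H1299 and HCT116. The IFNGR2 value in H1299 was -1.59 over features listed in both libraries. NFKB1 encodes an NF-kappaB subunit, IFNGR2 a subunit of the interferon gamma receptor, IRF2 an interferon regulatory factor and CMTM4 a membrane protein that stabilises CD274.

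Of 11 stress and DNA damage regulators of NKG2D ligands, 0 were higher, 3 were lower in H1299 and 5 in HCT116, beside the same shares of all genes. The log2 ratios in H1299 and HCT116 were -1.28 and -1.32 for CHEK1, a checkpoint kinase, and -1.84 and -1.13 for E2F1, a cell cycle transcription factor. They were -0.98 and -1.32 for ATF4, a factor of the integrated stress response. The list's medians were -0.79 and -0.97, against -0.07 and -0.23 over all genes. Of 6 genes of death receptors and resistance to killing, TNFRSF10B, a TRAIL receptor, was higher at 1.37 and 1.09, and SERPINB9, the granzyme B inhibitor, at 3.06 and 1.32. FAS was lower at -1.11 and -1.61, the latter -0.90 over features listed in both libraries. CFLAR, an inhibitor of caspase-8, was at -0.87 and -1.58.

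For each member, the genes with the nearest profile over the 4 libraries were found by the Euclidean distance of centred log2 CPM plus 0.1, among 10702 or 10703 genes with at least 500 counts. With 4 libraries many genes have close profiles, and the distance is a description. Nearest to ULBP1 were RHOB (0.19) and TPPP (0.20), and nearest to ULBP2 were B3GNT4 (0.13) and DDX60L (0.14). Nearest to MICA was ZNF232 (0.07), to MICB GEMIN7 and UBE3C (both 0.06), and to CD274 RNF24 (0.03). CD276 lay nearest to HMGB2 (0.15) and WEE1 (0.16), and PVR to ARPP19 (0.09) and BIRC5 (0.10). HMGB2, WEE1 and BIRC5 are genes of dividing cells. CD47 lay nearest to ELOVL5 (0.12), ULBP3 to CBX8 (0.11), and CD70 to RP11-162D16.2 (0.23), the widest nearest distance of the 10.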

How the data were processed

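The authors deposited whole-number counts per feature and cell, 1 table for genes and 1 for TE. Per the labels, cell barcodes and molecular identifiers were read. STAR and CASAVA, and the builds GRCh38 and hg38, are named in the submitters' processing notes without a role. The sources used here do not give whether identifiers were collapsed, the counting tool, the annotation or the cell filter. Cells were assigned to libraries by the library name in their identifier, all 15289 cells were kept, and no doublet caller was run. Counts were summed per gene name and library and divided by gene plus TE counts. Names that join several genes, 11.4% to 18.3% of gene counts per library, were left out. Levels carry exact Poisson intervals, shares Clopper-Pearson intervals, ratios exact conditional binomial intervals, and differences of log2 ratios a normal approximation. No p-value was computed. The 10 members were all named. Of each pathway list, at most 4 genes past the 2-fold rule in either line with the largest absolute log2 ratio were named. Members and lists were chosen with earlier results of these data known. Positions are from GENCODE v29. Work used Python 3.11.15, numpy 2.4.6, pandas 2.3.3 and scipy 1.17.1. Alternatives were the fold and count thresholds, the scale, the features, the cells and the thinning. The ratio and its interval were tested on simulated Poisson counts, which hold no variation between cells or cultures. The other intervals were not tested in this way. One gene chosen by the naming rule is not reported here.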

Additional observations from a re-analysis of the deposited data

Results flagged for a closer look

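In 3 genes the treatment ratio of counts summed over features lay on opposite sides of 1 in the 2 lines. MICA had a log2 ratio of -0.06 in H1299 and 1.48 in HCT116, a difference of -1.54 (-1.65 to -1.43). CD47 had -0.30 and 1.05, a difference of -1.35 (-1.47 to -1.23), and CD70 had -0.20 and 1.60, a difference of -1.80 (-2.08 to -1.52). The difference was not tested, since each group was 1 library, and the intervals cover counting error only. The sign of MICA in H1299 is not stable, as it was 0.01 on the scale centred on the median of all genes. For CD70 the difference also includes a feature listed with DAC+SB alone.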

How the results depend on the processing

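With 4-fold in place of 2-fold, the higher and lower members numbered 1 and 0 in H1299 (2 and 0 before) and 0 and 1 in HCT116 (5 and 2 before). Between lines the higher and lower members then numbered 1 and 1 under DMSO (3 and 3 before) and 1 and 0 under DAC+SB (2 and 3 before). Without cells above 25% mitochondrial counts, 1 member was lower in H1299 (0 before), CD276 at a log2 ratio of -1.01. Centring on the median of all genes, which lay at -0.07, -0.23, 0.11 and 0.29, left 1 lower in HCT116 (2 before; PVR at -0.97) and 1 higher in H1299 under DAC+SB (2 before; MICB at 0.80). Leaving TE, mitochondrial and ribosomal protein genes out of the denominator also left 1 higher there (MICB at 0.92). Over 280 alternative log2 ratios of single members, 5 changed sign and 5 changed their call. The 280 include values that a setting could not change, as where a gene had no joined name. With a count minimum of 1, CD274 joined the higher members in HCT116, then 6. Cell shares at full depth moved in 40 of 40 values, where the greater depth by itself raises a share. Under the other 2 settings they moved in 0 of 40, but both reused the same random draw, so the draw was not varied. No paired analysis was possible because each group was 1 library. With 1 library per group, depth limits CD274, ULBP3 and the H1299 DMSO value of ULBP1, and variation between cultures was not measured.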
